A study of Solanum lycopersicum with 95 samples.

Results

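The genes described here are 7 tomato genes of the cytokinin pathway, out of 34075 genes in the count table. They comprise 2 adenosine phosphate-isopentenyltransferase genes (SlIPT3, Solyc01g080150, and SlIPT4, Solyc09g064910), 2 cytokinin trans-hydroxylase genes (SlCYP735A1, Solyc02g094860, and SlCYP735A2, Solyc02g085880), the zeatin O-glucosyltransferase B gene (Solyc05g053400) and 2 type-A response regulator genes (Solyc05g006420 and Solyc06g048600). They come from a fixed list of gene IDs, chosen by their differences between FR and No FR libraries in both organs and at all times. The differences between light treatments below are therefore a description. Counts of edgeR calls in those comparisons are printed once, beside the share over all genes, and nothing is read from them. The comparisons between times and between organs in control plants did not enter that choice and were tested, although the control libraries are those of the light comparisons. Changes over time within the Leaf FR libraries are given as values only.

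RNA was sequenced from leaves and fruits of the tomato cultivar Foundation, a commercial greenhouse type. Every plant received red and white light at 258 µmol m-2 s-1 under a 16 h photoperiod. In the Leaf FR groups, leaves, stem and apex were given far-red (FR) light as well, at 77 µmol m-2 s-1, from 63 days after sowing onwards, and the fruits received no FR. The No FR groups, the controls, received none. Samples were the first fruit of the second truss, which was immature green and 10 days past anthesis at the start, and a leaflet of leaf 13, just above that truss. They were taken before any FR (0 h) and 6 h, 12 h, 24 h, 48 h or 96 h after the FR was first switched on. The FR kept to the photoperiod, so it was off during the dark hours. Apart from the Leaf FR leaves at 12 h, with 3 libraries, each of the 24 groups of organ, light and time held 4 libraries from separate plants, 95 in all. A sample was powder of a whole fruit or leaflet, so that fewer cells of a type and less RNA per cell cannot be told apart.

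Cytokinins are adenine-derived hormones that promote cell division and act in sink organs and in delaying leaf senescence. Isopentenyltransferases (IPT) carry out the first step of their synthesis, and CYP735A enzymes hydroxylate the isopentenyladenine forms to the trans-zeatin forms. O-glucosyltransferases convert zeatins to storage conjugates that can be released again, and cytokinin oxidases/dehydrogenases (CKX) break the active forms down. Type-A response regulators are rapidly induced by cytokinin and dampen the response to it, as known from Arabidopsis. Adding FR to red light lowers the share of active phytochrome, the signal by which plants sense neighbours.

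Libraries held 14769415 to 17845503 assigned counts in leaves and 15631659 to 17957406 in fruits. Levels are given in CPM, counts per 1000000 assigned counts, after scaling by the trimmed mean of M values (TMM). Scaling factors ran from 1.17 to 1.3 in fruits and from 0.55 to 1.24 in leaves. TAG1 and TAGL1, MADS-box genes of carpels and fruits, stood at 28.1 to 55.0 and 49.3 to 87.2 CPM in every fruit library and at no more than 15 and 5 counts in any leaf library, so both organ labels matched these markers. The ripe-fruit polygalacturonase PG2a had 0 counts in all 95 libraries.

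In control plants the members fell into those of fruits, those of leaves and one at similar levels in both. At 0 h, 6 of 7 members differed between fruit and leaf, against 71.5% of the 18859 genes tested (edgeR quasi-likelihood test, Benjamini-Hochberg adjusted p under 0.05), so the share of members is close to that of all genes. Of these 6, SlCYP735A1, SlCYP735A2 and Solyc06g048600 reached the count filter only through the fruit libraries and SlIPT4 only through the leaf libraries, so the count supports nothing by itself. Without a filter on low counts the same 6 were called. With the filter, the median Log2FC of all 7 members, fruit against leaf, was 2.12 against 0.08 over all genes tested. It mixes 4 members called higher in fruits and 2 called higher in leaves, so no direction of the list is read from it. At 96 h all 6 members with enough counts differed, against 76.2% of 19214 genes, 3 in each direction. Solyc05g006420 was then among the 3 higher in leaves. Here too SlCYP735A1 and Solyc06g048600 reached the filter through the fruit libraries and SlIPT4 through the leaf libraries. This count therefore supports nothing by itself either. Without the filter 6 of 7 members were called, and SlCYP735A2 was not.

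**Figure D1:**
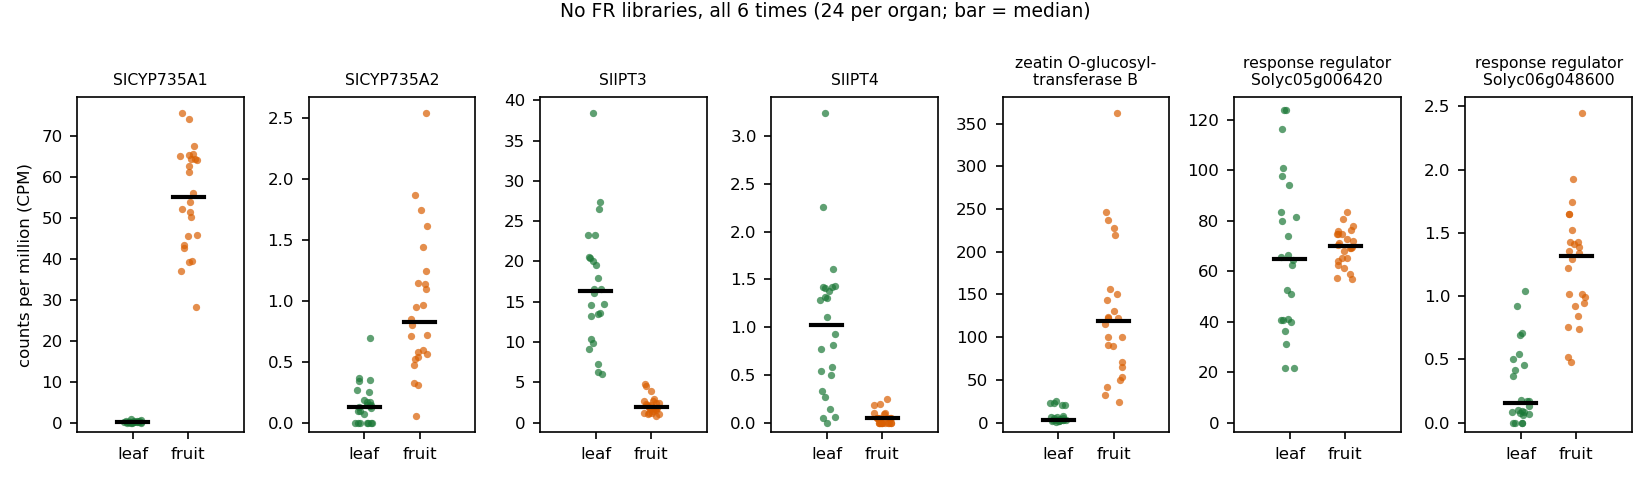
CPM of each of the 7 genes in the No FR libraries of leaves and fruits, 24 libraries per organ over all 6 times, each gene on its own linear axis; points are libraries and bars are medians. SlCYP735A1 does not exceed 0.91 CPM in leaves and does not fall below 28.2 CPM in fruits, whereas the ranges of Solyc05g006420 overlap.

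SlCYP735A1 and SlCYP735A2, the trans-hydroxylase genes, were genes of the fruit. At 0 h the control fruits held 64.0, 39.5, 65.2 and 43.4 CPM of SlCYP735A1, and the control leaves 0.09, 0.17, 0 and 0.67 CPM, which is at most 8 counts per library. The organs did not overlap, as was the case in this direction for 35.8% of the 18859 genes tested at 0 h. The Log2FC was 7.79 ± 0.51 (SE, adjusted p = 1.13e-06, edgeR). At 96 h it was 8.86 ± 0.37 (adjusted p = 2.06e-08). Across all 47 leaf libraries SlCYP735A1 ranged from 0 to 29 counts, with 0 in 8 of them. SlCYP735A2 was at 0.72, 0.54, 1.75 and 0.85 CPM in control fruits at 0 h and at 0.09, 0.17, 0 and 0.25 CPM in control leaves, a Log2FC of 2.86 ± 0.66 (adjusted p = 0.0035, and 0.0041 with no count filter). At 96 h only 2 control fruit libraries held 10 or more counts of it, below the filter, and without a filter the Log2FC was 1.25 ± 1.00 (adjusted p = 0.29).

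In control fruits neither hydroxylase gene passed the threshold over time. From 0 to 96 h their Log2FC was 0.09 ± 0.24 for SlCYP735A1 (adjusted p = 0.84, edgeR) and -1.21 ± 0.57 for SlCYP735A2 (adjusted p = 0.16, unadjusted p = 0.046). Group means of SlCYP735A1 in control fruits ran from 48.8 CPM at 12 h to 61.9 CPM at 6 h, with SDs of 10.4 to 15.4 CPM within groups, so that no order of the times could be read.

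Between light treatments, SlCYP735A1 was highest in the fruits of Leaf FR plants at 48 h. These held 79.0, 86.9, 100.3 and 86.2 CPM, and the No FR fruits 64.4, 64.3, 53.8 and 42.5 CPM. The lowest of the Leaf FR values exceeded the highest control value. The Log2FC was 0.64 ± 0.13, or a mean 1.57 times that of the controls. Groups with Leaf FR entirely above No FR made up 2.66% of the 18442 genes tested at that time. The Log2FC was 0.54 ± 0.23 at 12 h and 0.41 ± 0.18 at 96 h, with overlapping groups, and 0.16 ± 0.26 at 0 h, before any FR. SlCYP735A2 in fruits gave Log2FC values from -0.88 ± 0.43 at 6 h to 0.86 ± 0.72 at 96 h, and its groups overlapped at all 6 times. Neither gene had enough counts for a light comparison in leaves.

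SlIPT3 and SlIPT4, the isopentenyltransferase genes, were genes of the leaf. SlIPT3 stood at 9.09, 18.0, 20.1 and 13.6 CPM in control leaves at 0 h and at 1.43, 1.78, 1.65 and 1.90 CPM in control fruits. No library of one organ reached the range of the other, as for the 32.4% of genes tested whose fruit libraries all lay below the leaf libraries. The Log2FC, fruit against leaf, was -3.15 ± 0.27 (adjusted p = 6.25e-06, edgeR) at 0 h and -2.61 ± 0.36 (adjusted p = 7.61e-05) at 96 h. SlIPT4 was at 1.1, 0.59, 2.25 and 1.42 CPM in control leaves at 0 h and at 0.05, 0, 0.24 and 0.20 CPM in control fruits, a Log2FC of -3.33 ± 0.67 (adjusted p = 0.0016, and 0.0021 with no count filter). With leaf replicate 1, 3 or 4 left out, SlIPT4 fell below the count filter and had no test. At 96 h the 4 control leaf libraries summed to 94 counts of SlIPT4 and the 4 fruit libraries to 2 counts, a leaf level 75.8 times that of fruits with an exact binomial 95% interval of 20.4 to 635 that covers counting error only (fitted Log2FC -5.80 ± 0.73, adjusted p = 3.97e-05). In all 48 fruit libraries SlIPT4 reached 7 counts at most and was at 0 in 23.

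SlIPT3 rose in growing fruits. Control fruits held 1.43, 1.78, 1.65 and 1.90 CPM at 0 h and 2.65, 2.23, 4.51 and 4.85 CPM at 96 h. All 96 h libraries lay above the 0 h libraries, as did those of 8.51% of the 18981 genes tested. The Log2FC was 1.08 ± 0.31 (adjusted p = 0.023, edgeR). The call rested on few libraries, since it was lost without control fruit replicate 3 or 4 at 96 h (adjusted p = 0.079 and 0.090) and without replicate 1 or 3 at 0 h (0.055 and 0.064), with Log2FC values from 0.89 to 1.06. Fruits of Leaf FR plants, a separate set of libraries, went from 1.49, 1.15, 1.48 and 1.12 CPM to 4.98, 3.52, 3.58 and 4.04 CPM over the same 96 h, again without overlap, with a Log2FC of 1.6 ± 0.29. The share of all genes without overlap was not counted in these fruits. Over these 96 h edgeR called 4207 of 18945 genes in them, so change was common.

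In leaves no time change of the IPT genes passed the threshold. SlIPT4 gave a Log2FC of -2.29 ± 0.88 from 0 to 6 h in control leaves (adjusted p = 0.061, edgeR), which DESeq2 called (adjusted p = 0.026). SlIPT3 gave -0.78 ± 0.37 over those hours (adjusted p = 0.13). Without control leaf replicate 2 at 6 h, which at 16.1 CPM stood apart from 7.29, 6.09 and 6.30 CPM in the other 3 libraries, both passed, SlIPT3 at -1.20 ± 0.38 (adjusted p = 0.023) and SlIPT4 at -3.52 ± 1.01 (adjusted p = 0.014). SlIPT4 also passed without control leaf replicate 2 at 0 h (adjusted p = 0.0498). Over all edgeR fits with 1 library left out, SlIPT3 ran from -1.20 to -0.61, with adjusted p up to 0.33. SlIPT4 ran from -3.52 to -1.85, with adjusted p up to 0.16.

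SlIPT3 overlapped between light treatments at every time in both organs. In leaves at 6 h, Leaf FR plants held 15.7, 10.6, 16.6 and 25.1 CPM and No FR plants 7.29, 16.1, 6.09 and 6.30 CPM. One control library lay within the Leaf FR range, and the Log2FC was 0.96 ± 0.38, or 1.38 without that library. At the other 5 times it ran from -0.37 ± 0.29 at 0 h to 0.64 ± 0.35 at 48 h in leaves. In fruits it ran from -0.36 ± 0.20 at 0 h to 0.52 ± 0.31 at 6 h.

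SlIPT4 was lower in Leaf FR leaves at 96 h in 3 of 4 libraries. These held 0.09, 0.07, 0.07 and 1.5 CPM, of which the first 3 are 1 count each, and No FR leaves held 1.3, 1.42, 3.24 and 1.43 CPM. The groups overlapped because of Leaf FR replicate 4. The Log2FC was -2.12 ± 0.91, and -4.44 without that library. At 0 h, before any FR, it was -0.30 ± 0.65, and -1.24 without Leaf FR replicate 4 of that time. It was -0.26 ± 0.56 at 48 h, and SlIPT4 had too few counts for a fit at 6, 12 and 24 h.

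**Figure D2:**
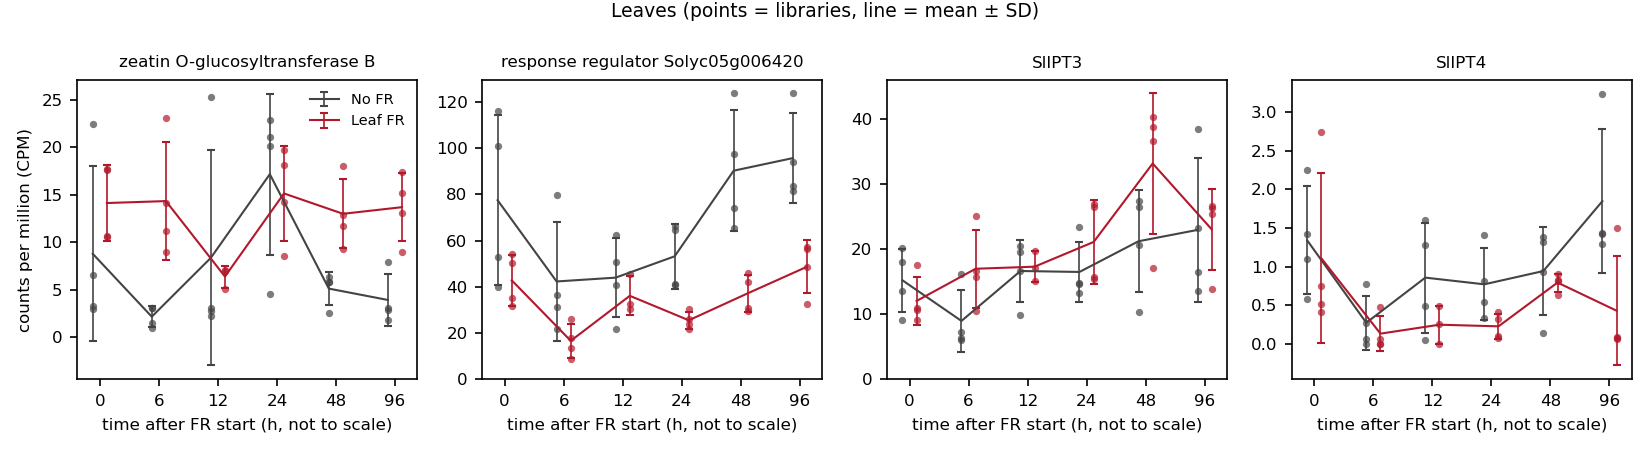
CPM of 4 of the genes in leaves, by hours since FR was switched on, in Leaf FR (red) and No FR (grey) plants. Points are libraries (4 per group, 3 for Leaf FR at 12 h), lines join means and bars are SD. SlIPT4 had too few counts for a light comparison at 6, 12 and 24 h. The zeatin O-glucosyltransferase B gene is higher in Leaf FR at 6, 48 and 96 h and Solyc05g006420 is lower at 24, 48 and 96 h, without overlap at those times.

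The zeatin O-glucosyltransferase B gene, whose product would make the storage conjugate, was at higher levels in fruits. Control fruits at 0 h held 115, 91.4, 362 and 219 CPM and control leaves 2.94, 3.26, 22.4 and 6.52 CPM. The lowest fruit library was above the highest leaf library, as for 35.8% of genes tested. The Log2FC was 4.51 ± 0.75 (adjusted p = 4.67e-04, edgeR). At 96 h the Log2FC was 4.35 ± 0.57 (adjusted p = 5.42e-05). The spread between plants was wide, with an SD of 123 CPM around a mean of 197 CPM in control fruits at 0 h.

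Its change in control fruits from 0 to 96 h did not pass the threshold. Control fruits at 96 h held 150, 50.5, 70.7 and 32.8 CPM, overlapping with 0 h, at a Log2FC of -1.37 ± 0.53 (adjusted p = 0.086, edgeR). Without control fruit replicate 1 at 96 h, the library at 150 CPM, it was -1.93 ± 0.56 (adjusted p = 0.028). Over all edgeR fits with 1 library left out it ran from -1.93 to -0.90, with adjusted p up to 0.32. Leaf FR fruits went from 229, 280, 72.7 and 273 CPM at 0 h to 19.2, 20.5, 34.6 and 18.7 CPM at 96 h, without overlap, at a Log2FC of -3.21 ± 0.32. How many genes lay apart over time in Leaf FR fruits was not counted, but edgeR called 4207 of 18945 genes there from 0 to 96 h. Whether the change differed between the light treatments was not tested, because the light contrast at 96 h had a part in choosing the genes.

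In control leaves the same gene was variable between libraries of one time. From 0 to 6 h the Log2FC was -2.03 ± 0.80 (adjusted p = 0.068 by edgeR and 0.025 by DESeq2), and it passed in edgeR without replicate 2 at 0 h (adjusted p = 0.049). From 12 to 24 h it was 1.04 ± 0.76 (adjusted p = 0.43). That value rested on replicate 2 at 12 h, at 25.4 CPM beside 2.22, 3.06 and 2.79 CPM, and without it the Log2FC was 2.69 ± 0.71 (adjusted p = 0.0094). With each library left out in turn it ran from 0.75 to 2.69, with adjusted p up to 0.67 in edgeR.

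In leaves under FR it had the highest Log2FC of the members. At 6 h Leaf FR leaves held 23.1, 11.2, 14.1 and 8.94 CPM and No FR leaves 0.93, 3.08, 1.51 and 3.12 CPM. Every Leaf FR library was above every control, a Log2FC of 2.77 ± 0.45 and a mean 6.65 times as high. It was the 1 member of the 3 tested in that comparison to pass an adjusted p under 0.05, where 0.365% of 18085 genes did, from which nothing is read because the rule used this contrast. With 1 library left out the Log2FC was between 2.44 and 2.99. The call was not stable over those fits or with a replicate block, and nothing is read from that either. At 48 h the Leaf FR leaves were at 11.8, 18.0, 9.34 and 12.9 CPM against 5.82, 5.78, 6.30 and 2.58 CPM, and at 96 h at 15.2, 17.4, 9.02 and 13.1 CPM against 3.03, 7.94, 1.85 and 2.87 CPM. Neither pair of groups overlapped, with Log2FC values of 1.32 ± 0.32 and 1.80 ± 0.43. Groups with Leaf FR entirely above No FR made up 3.25%, 3.10% and 4.06% of genes tested at these 3 times. At 0, 12 and 24 h the groups overlapped, with Log2FC values of 0.67 ± 0.60, -0.40 ± 0.90 and -0.20 ± 0.46, and the value at 12 h was 1.25 without control leaf replicate 2. At 0 h, before any FR, the value was 1.71 without control leaf replicate 3, the library at 22.4 CPM.

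In fruits the sign at 96 h was the opposite one. Leaf FR fruits held 19.2, 20.5, 34.6 and 18.7 CPM and No FR fruits 150, 50.5, 70.7 and 32.8 CPM. They overlapped through Leaf FR replicate 3 alone, and the Log2FC was -1.73 ± 0.42. At the 5 earlier times it lay between -0.64 ± 0.22 at 24 h and 0.12 ± 0.47 at 0 h. The leaf and fruit responses share no library and were set side by side without a test of their difference.

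**Figure D3:**
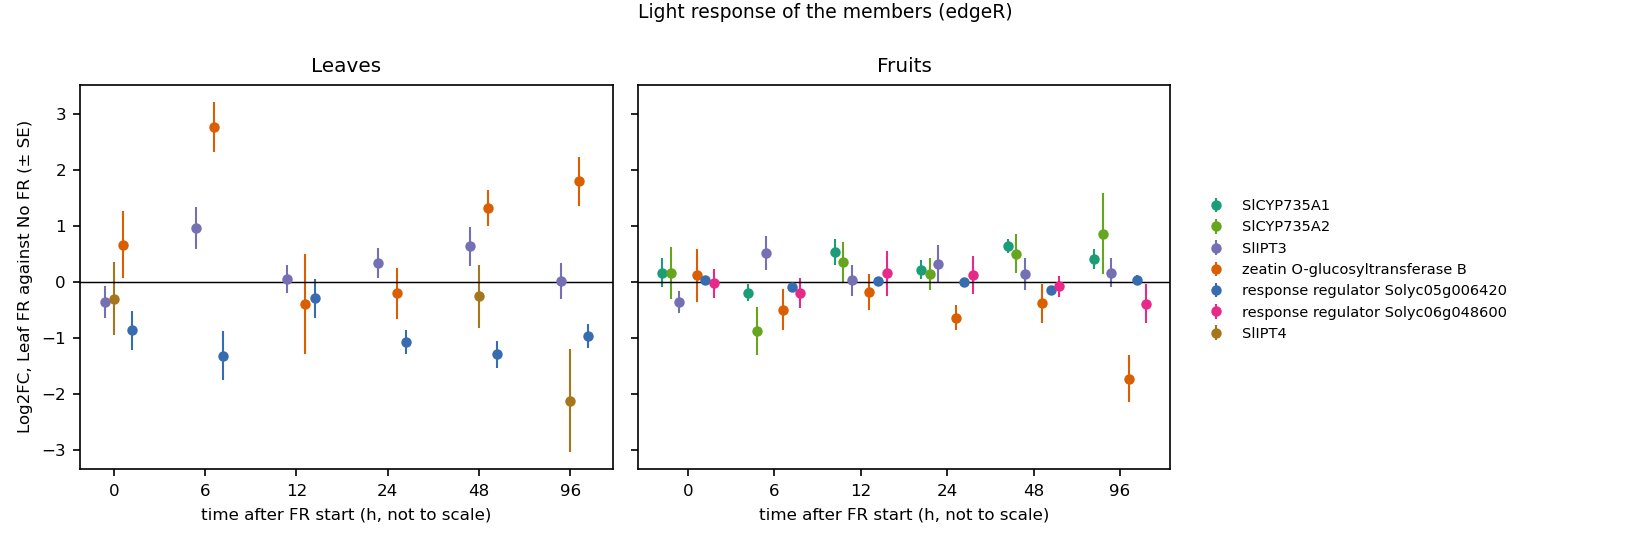
Log2FC of Leaf FR against No FR (vertical axis, with its SE) by hours since FR was switched on in leaves and fruits, for every gene with enough counts for the edgeR fit. In leaves Solyc05g006420 is below 0 at all 6 times, 0 h included, and in fruits its values stay between -0.15 and 0.03.

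Of the response regulator genes, Solyc05g006420 had similar levels in both organs at 0 h and Solyc06g048600 was a low gene of the fruit. Control leaves at 0 h held 101, 52.8, 116 and 39.9 CPM of Solyc05g006420, around the 76.5, 74.8, 76.1 and 72.1 CPM of control fruits. The Log2FC, fruit against leaf, was -0.02 ± 0.30 at 0 h (adjusted p = 0.95, edgeR) and -0.59 ± 0.15 at 96 h (adjusted p = 0.0040). This gene depended on the scaling. With library totals alone, which moved the median of all genes from 0.08 to 0.81 at 0 h and from 0.07 to 0.65 at 96 h, its Log2FC was 0.74 (adjusted p = 0.031) and -0.0049 (adjusted p = 0.98), in both cases below the median of all genes. Solyc06g048600 was at 1.34, 1.29, 0.92 and 0.95 CPM in control fruits at 0 h and at 0.46, 0.08, 0.42 and 0.08 CPM in control leaves, at a Log2FC of 2.12 ± 0.49 (adjusted p = 0.0033), and of 2.57 ± 0.61 at 96 h (adjusted p = 0.0030). In leaves it never exceeded 13 counts.

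In fruits Solyc05g006420 varied little between libraries and fell over the 96 h. Control fruits were at 65.4, 69.6, 61.3 and 62.5 CPM at 12 h, the end of the photoperiod, below all 4 libraries of 0 h. They were at 78.1, 83.4, 75.0 and 70.4 CPM at 24 h, above all those of 12 h. Groups that lie apart in those directions made up 5.40% and 5.09% of the 18981 genes tested. The Log2FC was -0.21 ± 0.07 from 0 to 12 h (adjusted p = 0.097, edgeR) and 0.24 ± 0.07 from 12 to 24 h (adjusted p = 0.058). The second was called by DESeq2 (adjusted p = 0.024) and in edgeR without control fruit replicate 2 at 12 h (adjusted p = 0.041). With each library left out in turn its adjusted p reached 0.21 in edgeR. At 96 h the gene was at 57.3, 69.1, 58.9 and 56.9 CPM, below all 0 h libraries, a Log2FC of -0.31 ± 0.07 (adjusted p = 0.0088) that stayed past the threshold without any 1 library (adjusted p from 0.0034 to 0.037 over the libraries left out). In control fruits 7.30% of genes tested had all 96 h libraries below those of 0 h. Leaf FR fruits gave -0.29 ± 0.07 for Solyc05g006420 over the same time. Solyc06g048600 gave 0.62 ± 0.31 over 96 h in control fruits (adjusted p = 0.18).

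In control leaves Solyc05g006420 gave -0.88 ± 0.39 from 0 to 6 h (adjusted p = 0.10, edgeR). It passed without control leaf replicate 4 at 6 h, the library at 79.9 CPM beside 21.7, 36.4 and 31.2 CPM, at -1.36 ± 0.37 (adjusted p = 0.012), and without replicate 4 at 0 h (adjusted p = 0.049). Over all edgeR fits with 1 library left out it ran from -1.36 to -0.63, with adjusted p up to 0.29.

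Between light treatments, Solyc05g006420 in leaves was lower under Leaf FR. At 24 h Leaf FR leaves held 26.1, 30.2, 23.8 and 21.9 CPM against 66.5, 64.5, 40.7 and 41.2 CPM in controls. At 48 h they held 29.7, 31.0, 46.2 and 41.9 CPM against 65.6, 97.6, 124 and 74.2 CPM. By 96 h the values were 32.5, 48.5, 56.4 and 57.2 CPM against 94.1, 81.5, 124 and 83.6 CPM. At these 3 times every Leaf FR library was below every control. Groups that lie apart in that direction made up 1.72%, 2.49% and 2.84% of genes tested. The Log2FC was -1.08 ± 0.21, -1.30 ± 0.24 and -0.98 ± 0.21. At 6 h it was -1.32 ± 0.44 and at 12 h -0.29 ± 0.35, with overlap.

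Before the FR was switched on, the plants sampled for Leaf FR had a lower mean of this gene, 42.8 against 77.5 CPM. At 0 h their leaves held 54.0, 35.1, 31.8 and 50.3 CPM against 101, 52.8, 116 and 39.9 CPM, a Log2FC of -0.87 ± 0.34 with overlapping groups. Other plants were sampled at the later times, so whether those plants differed at the start is not known. The part of any starting difference in the later values was not tested. In fruits Solyc05g006420 gave Log2FC values between -0.15 ± 0.07 at 48 h and 0.03 ± 0.09 at 96 h, and Solyc06g048600 between -0.39 ± 0.35 at 96 h and 0.15 ± 0.40 at 12 h, with overlap at every time.

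**Figure D4:**
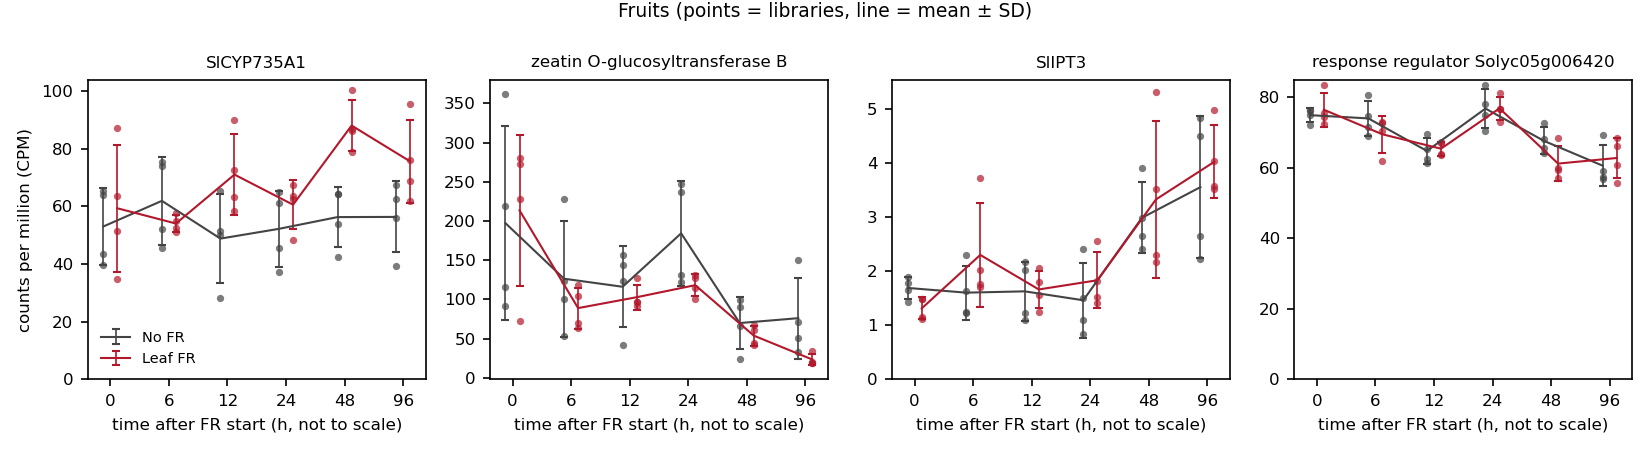
CPM of 4 of the genes in fruits by hours since FR was switched on, in Leaf FR (red) and No FR (grey) plants; points are libraries, 4 per group, lines join means and bars are SD. SlIPT3 is higher at 96 h than at 0 h, the mean of the zeatin O-glucosyltransferase B gene is lower, with overlap in No FR, and SlCYP735A1 at 48 h does not overlap between light treatments.

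The calls over the members in the light comparisons are given as counts. In leaves 1 of 3 members tested passed at 6 h, 0 of 3 at both 12 and 24 h, and 0 of 4 at 0, 48 and 96 h (edgeR). In order of time, over all genes the shares called were 0%, 0.365%, 0.00548%, 0.188%, 0.0795% and 0.263%. In fruits 0 of 6 members passed at each time, where 0% of genes were called up to 48 h and 0.0434% at 96 h. At an unadjusted p under 0.05, edgeR gave 552 genes in leaves at 0 h and 247, 619, 505, 888 and 1391 in fruits from 0 to 48 h. Since the light contrast chose the members, nothing is read from these counts. The median Log2FC of the members tested was between -0.48 and 0.96 in leaves and between -0.19 and 0.13 in fruits, beside medians of all genes between -0.04 and 0.02.

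In control plants over time, 2 of 6 members changed in fruits from 0 to 96 h, 1 in each direction, where 14.0% of 18981 genes did. DESeq2 called the same 2 members and 16.1% of genes. In edgeR 4 of 6 members passed unadjusted, beside 5628 of the 18981 genes. In fruits 0 of 6 passed from 0 to 6 h, 0 to 12 h and 12 to 24 h, where 6.46%, 5.16% and 4.41% of genes did. At an unadjusted p under 0.05, 0, 1 and 1 members passed there, beside 3170, 3261 and 3006 of the 18981 genes. DESeq2 called 0, 0 and 1 members, the last beside 5.65% of genes. In leaves 0 of 5 members passed from 0 to 6 h, 0 to 12 h, 12 to 24 h and 0 to 96 h, where 25.6%, 8.82%, 9.93% and 0% of 18943 genes did. The unadjusted test gave 4, 1, 0 and 0 members, beside 6928, 4718, 4622 and 2514 of the 18943 genes. DESeq2 called 2, 0, 0 and 0 members, the first beside 29.2% of genes and the last beside 30 genes. The change with time was also compared between organs. Of 7 members 0 differed between fruits and leaves in the change from 0 to 12 h, where 0.0608% of 19733 genes did, and 0 in the change from 0 to 96 h, where 0.243% of 19759 genes did (edgeR). DESeq2 called 0 in both, and edgeR gave 0 in both at an unadjusted p under 0.05, beside 2685 and 2948 genes. The value furthest from 0 was that of SlIPT4 from 0 to 96 h, at -2.47 ± 1.21 (adjusted p = 0.35).

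Functional descriptions of these gene IDs were not used here, so that the rest of the pathway is represented by a pair of CKX genes that the study named on these samples. CKX4 (Solyc04g080820) was at 113 to 279 CPM in Leaf FR leaves and at 7.41 to 18.0 CPM in No FR leaves at 96 h, a Log2FC of 4.08 ± 0.36. At 0 h, before any FR, the means were 25.9 and 9.32 CPM, with overlapping groups and a Log2FC of 1.45 ± 0.56. The other CKX gene (Solyc08g061920) had a single count in all 47 leaf libraries. The study named both for lower levels under Leaf FR in fruits at 96 h, where their Log2FC was -1.52 ± 0.27 and -1.30 ± 0.30. In control fruits from 0 to 96 h the Log2FC was 1.31 ± 0.27 for CKX4 and 1.28 ± 0.36 for Solyc08g061920. The control libraries of 96 h had a part in that choice, so these are values without a p. In Leaf FR fruits the values over that time were -0.12 ± 0.24 and -0.56 ± 0.31, and the difference between the light treatments was not tested. Since the study chose both genes on these libraries, their direction is not independent evidence.

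The genes with the most similar pattern were searched over the 24 group means of log2 CPM, as a description in which the difference between organs and the library depth are shared by all points. Pearson's r with the nearest gene was 0.996 for SlCYP735A1 (Solyc10g005580), 0.965 for SlCYP735A2 (Solyc07g053650), 0.981 for SlIPT3 (Solyc03g025840), 0.951 for SlIPT4 (Solyc02g071580) and 0.967 for Solyc06g048600 (Solyc10g085880). For Solyc05g006420, with no large organ difference, it was 0.881 (Solyc10g079600). The gene nearest to the zeatin O-glucosyltransferase B gene was Solyc05g053120 at 0.989, and the next was at 0.961.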

How the data were processed

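Leaf and fruit RNA was sequenced as paired-end reads. Per the study's methods, the authors filtered reads with SOAPnuke 1.5.6, aligned them with Bowtie2 2.5.0 to the tomato reference ITAG4.0 and estimated gene abundance with RSEM 1.3.1. They excluded 1 leaf sample for RNA quality. The authors deposited expected counts per gene as whole numbers, which were used as deposited, and a normalised table that was not used here. RSEM divides reads that fit several near-identical genes by estimate, and such genes may share signal. Gene names follow the list of IDs and, for SlCYP735A1 and the CKX genes, the study; no genome, protein or promoter of these IDs was used, and so no sequence is shown and levels are not compared between genes.

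Tests covered the genes that reached 10 counts in 3 or more libraries of a fit and were made with edgeR 4.0.16 (R 4.3.3) quasi-likelihood tests, TMM scaling and Benjamini-Hochberg adjustment over all genes tested, with 0.05 as the threshold. Light comparisons used the libraries of 1 organ and time, control time comparisons the No FR libraries of an organ, and organ comparisons the No FR libraries of both organs at that time. Leaf and fruit libraries may come from the same plants, which the labels do not link. Levels are CPM scaled over all 95 libraries. The alternatives were DESeq2 1.42.0, its size factors, library totals alone, no filter, other sets of libraries in the fit, a replicate block and leaving out each library. The contrast over 96 h in Leaf FR fruits, the count of groups without overlap and the neighbouring genes were added after the data were seen. The members and lists were chosen with earlier results of these data known; all 7 members are named, and CKX genes stand for the rest of the pathway. Of 141 pairs of libraries of one group none held identical counts, and all differed by more than counting noise. The tests were tested on simulated counts with known changes. No per-sample column was left unassigned.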

Additional observations from a re-analysis of the deposited data

Results flagged for a closer look

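Of 107 groups of 4 libraries in which a member had 10 or more counts in at least 3 libraries, 14 held a library whose gap to its nearest neighbour, as a share of the range of the group, passed Dixon's 95% critical value. Chance flags about 1 in 20 such groups, and libraries share their flags because each holds all members.

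In leaves, the zeatin O-glucosyltransferase B gene had 1 high library in No FR at 12 h (25.4 CPM, the others 2.22 to 3.06 CPM), and 1 low library in No FR at 24 h (4.55 CPM, the others 20.1 to 22.9 CPM) and at 48 h (2.58 CPM, the others 5.78 to 6.30 CPM). SlIPT3 had a high library in No FR leaves at 6 h (16.1 CPM, the others 6.09 to 7.29 CPM) and at 24 h (23.3 CPM, the others 13.2 to 14.8 CPM), and a low one in Leaf FR leaves at 48 h (17.1 CPM, the others 36.6 to 40.3 CPM) and at 96 h (13.8 CPM, the others 25.4 to 26.7 CPM). SlIPT4 had a high library in No FR leaves at 96 h (3.24 CPM, the others 1.3 to 1.43 CPM).

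In fruits, the zeatin O-glucosyltransferase B gene had a high library in Leaf FR at 12 h (127 CPM, the others 91.5 to 96.4 CPM) and at 96 h (34.6 CPM, the others 18.7 to 20.5 CPM). SlIPT3 had one in Leaf FR at 6 h (3.72 CPM, the others 1.70 to 2.02 CPM). SlCYP735A2 had one in Leaf FR at 24 h (1.12 CPM, the others 0.95 to 0.97 CPM), Solyc06g048600 in Leaf FR at 12 h (1.51 CPM, the others 0.72 to 0.83 CPM) and Solyc05g006420 in No FR at 96 h (69.1 CPM, the others 56.9 to 58.9 CPM).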

How the results depend on the processing

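The count of members past the threshold moved as follows, and nothing is read from it in the light comparisons, which chose the members. With DESeq2 it was 1 of 3 in leaves after 24 h, 2 of 4 after 48 h and 2 of 4 after 96 h. Over all genes DESeq2 called 266 of 17589, 253 of 17607 and 439 of 17520 there. In fruits DESeq2 gave 1 of 6 after both 48 h and 96 h, beside 18 of 18442 and 1072 of 18438 genes. In each of these comparisons edgeR gave 0 members. One fit over all times of the organ also gave 1 of 6 in fruits at 96 h (the zeatin O-glucosyltransferase B gene), beside 512 of 19238 genes. From 0 to 6 h in control leaves DESeq2 gave 2 of 5, beside 29.2% of genes. In control fruits from 12 to 24 h it gave 1 of 6, beside 5.65% of genes. Both counts were 0 with edgeR. Leaving out 1 library gave 0 to 1 members in the light comparisons of leaves at 6 h and at 96 h. In control leaves it gave 0 to 2 from 0 to 6 h and 0 to 1 from 12 to 24 h. In control fruits it gave 0 to 1 from 12 to 24 h and 1 to 3 from 0 to 96 h. The shares over all genes in these fits are not given, so nothing is read from these counts. The Log2FC of Solyc05g006420, fruit against leaf at 0 h, turned from -0.02 to 0.74 with library totals alone; those totals also moved the median of all genes in control leaves to 0.47 from 0 to 6 h, 0.51 from 0 to 12 h and -0.53 from 12 to 24 h. No other value of a tested member past the threshold changed sign.

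Same-numbered libraries of the light groups were not shown to be paired: their deviations correlated at -0.69 to 0.68. With a replicate block the count of members was 0 in leaves at 6 h against 1, 1 in control leaves from 0 to 6 h against 0 (SlIPT4) and 1 in control fruits from 12 to 24 h against 0 (Solyc05g006420, adjusted p = 0.046). Over all genes the block called 199 of 18085, 4933 of 18943 and 943 of 18981 there.

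The counts over all genes depended on the tool. In leaves from 0 to 96 h of light treatment edgeR called 0, 66, 1, 33, 14 and 46 genes, DESeq2 21, 510, 21, 266, 253 and 439, one fit over all times 0, 160, 21, 88, 33 and 127, and the replicate block 0, 199, 0, 19, 3 and 17. In fruits at 96 h these were 8, 1072, 512 and 3, and DESeq2 called 1, 0, 1, 7 and 18 at the earlier times. Library totals alone gave 8 in leaves at 48 h and 3 in fruits at 96 h. In control leaves, a fit of only the times compared gave 0 genes from 0 to 12 h and 1 from 12 to 24 h against 1670 and 1881, and in control fruits 542 from 0 to 12 h and 1594 from 0 to 96 h against 979 and 2649. DESeq2 gave 2600 in control leaves from 0 to 12 h, and library totals 5519 there and 6448 from 12 to 24 h. For the change compared between organs, DESeq2 gave 495 and 568 genes against 12 and 48, library totals 340 from 0 to 12 h, no filter 7, and the block 21 from 0 to 96 h. Depth limits SlCYP735A1, SlCYP735A2 and Solyc06g048600 in leaves and SlIPT4 in fruits, where a light effect was not detectable.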

Other observations

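Solyc05g053410 lies next to the zeatin O-glucosyltransferase B gene by ID. Solyc05g053120 had the most similar group means, a search that used the values given here, so its likeness is no separate result. Both were looked at after the values of the zeatin O-glucosyltransferase B gene were known. Solyc05g053410 was at 41.7 to 71.9 CPM in Leaf FR leaves and at 4.88 to 9.41 CPM in No FR leaves at 6 h, a Log2FC of 3.06 ± 0.27, and at 74.6 to 167 CPM against 5.56 to 16.03 CPM at 96 h, a Log2FC of 3.52 ± 0.35. At 0 h its Log2FC was 0.14 ± 0.32, and at 12, 24 and 48 h 2.6 ± 0.35, 2.88 ± 0.31 and 3.37 ± 0.28. In fruits at 96 h its Log2FC was 0.15 ± 0.11. Solyc05g053120, the gene most similar to the zeatin O-glucosyltransferase B gene over the group means, gave 1.95 ± 0.77 in leaves after 6 h, 1.51 ± 0.36 after 48 h and 1.69 ± 0.69 after 96 h. At 0, 12 and 24 h the values were 0.20 ± 0.75, 0.16 ± 0.70 and -0.79 ± 0.53. It gave -1.45 ± 0.39 in fruits at 96 h. In Leaf FR fruits Solyc05g053120 gave a Log2FC of -2.89 ± 0.31 from 0 to 96 h and Solyc05g053410 one of 0.82 ± 0.15. Whether these genes share reads with one another was not tested.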
